A study of Mus musculus with 28 samples.

Results

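The 7 genes described here encode thiolases and the partner subunit of a thiolase. They were taken by gene symbol as Acaa2, Hadha, Hadhb and Acat1, whose products work in mitochondria, and Acaa1a, Acaa1b and Scp2, whose products work in peroxisomes. Each of the 3 deposited tables of FPKM (fragments per kilobase of gene model, divided by a denominator for each library) held all 7. The tables listed 54163 genes for liver at 40 d, 54189 for muscle at 40 d and 54501 for both tissues at 24 h. The treated mice were injected into the peritoneum with aspirin at 3.0 mg/kg together with trimetazidine at 5.0 mg/kg, and the vehicle mice with the solvent. The samples at 40 d come from mice treated for 40 days, with injection each day. Per their labels, those at 24 h were taken 24 h after injection of the drugs or the vehicle. At 40 d there were 6 treated and 6 vehicle libraries of each tissue, and at 24 h there was 1 treated and 1 vehicle library of each tissue, 28 libraries in all. Treated and vehicle animals alike were male mice of the genotype Lepob/Lepob on C57BL/6J, which lack working leptin throughout the body, and had been put at 4 weeks of age on the AMLN diet, which supplied 40% of calories as fat and 20% as fructose with 2% cholesterol, for 20 weeks. All groups therefore carry the same mutation and diet, and no lean or unfed control enters the comparisons. The labels do not say which muscle was taken, and animals given either drug alone were not analysed here.

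Thiolases cut a 3-ketoacyl-CoA with coenzyme A, which releases acetyl-CoA and is the last step of each round of fatty acid beta oxidation. In the mitochondrion, long chains pass through the trifunctional protein, a complex in which the product of Hadha hydrates and oxidises the chain and the product of Hadhb cuts it, while the product of Acaa2 cuts shorter chains and that of Acat1 splits or joins acetoacetyl-CoA in ketone body and isoleucine metabolism. Peroxisomes shorten very long and branched chains with thiolases of their own, from Acaa1a and Acaa1b for straight chains and from the long form of Scp2 for branched chains and bile acid precursors. Trimetazidine has been described as an inhibitor of the long-chain mitochondrial thiolase, which is the reason for looking at these genes together. The tables measure RNA and say nothing of enzyme activity.

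In GRCm38 coordinates from the deposited tables, Hadha lies on the minus strand of chromosome 5 at chr5:30118304-30155162 and Hadhb on the plus strand at chr5:30155248-30184593, with 85 bases between the models. Acaa1b is at chr9:119148023-119157093 on the minus strand and Acaa1a 182.6 kb further along at chr9:119339676-119350299 on the plus strand.

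RefSeq promoter windows on GRCm38.p6, from 250 bases before to 50 bases after a gene's start site, were matched by symbol for 5 of the 7 genes, all but Acaa2 and Acat1. The window of Hadhb is shown because, by RefSeq start sites, it covers sequence upstream of both subunits of the trifunctional protein. Those of the Acaa1 pair are shown because the coding parts of these genes are nearly the same and their levels are not. Hadhb is at chr5:30155003-30155302 on the plus strand, Acaa1a at chr9:119341044-119341343 on the plus strand and Acaa1b at chr9:119157044-119157343 on the minus strand, all read 5′ to 3′ along the gene. Capitals mark GGGCGG (the GC box, found in 35.7% of 32851 RefSeq promoter windows) and CCAAT (in 37.4%), on either strand, so that CCGCCC and ATTGG are the same motifs read from the other strand.
Hadhb: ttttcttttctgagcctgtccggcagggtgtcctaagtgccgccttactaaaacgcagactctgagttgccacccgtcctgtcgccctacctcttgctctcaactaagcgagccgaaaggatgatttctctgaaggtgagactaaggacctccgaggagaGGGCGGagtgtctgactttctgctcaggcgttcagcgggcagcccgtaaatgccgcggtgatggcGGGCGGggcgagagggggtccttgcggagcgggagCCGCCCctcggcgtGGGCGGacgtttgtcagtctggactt
Acaa1a: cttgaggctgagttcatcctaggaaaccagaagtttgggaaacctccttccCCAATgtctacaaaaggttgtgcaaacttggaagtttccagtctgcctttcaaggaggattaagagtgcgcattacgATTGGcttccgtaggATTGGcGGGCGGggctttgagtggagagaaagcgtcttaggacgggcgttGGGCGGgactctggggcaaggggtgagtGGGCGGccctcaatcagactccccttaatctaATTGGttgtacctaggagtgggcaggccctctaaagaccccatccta
Acaa1b: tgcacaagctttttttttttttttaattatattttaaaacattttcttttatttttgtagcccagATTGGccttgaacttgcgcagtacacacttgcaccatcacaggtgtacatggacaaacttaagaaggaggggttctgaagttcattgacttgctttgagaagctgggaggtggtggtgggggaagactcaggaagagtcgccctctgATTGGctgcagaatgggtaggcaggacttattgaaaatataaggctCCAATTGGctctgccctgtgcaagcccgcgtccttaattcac

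The RefSeq start sites of Hadha and Hadhb are 272 bases apart and their windows share 228 bases. For Hadha the RefSeq start site is at 30154980, while the deposited gene model reaches 30155162, inside the Hadhb window. The Hadhb window holds 4 GC boxes and no CCAAT, and the Hadha window holds 1 GC box, which is the most upstream of those 4. The Acaa1a window holds 4 CCAAT and 3 GC boxes, and the Acaa1b window holds 4 CCAAT, of which a pair overlaps head to head in CCAATTGG, and 0 GC boxes. Aligned end to end, the windows of Acaa1a and Acaa1b were 49.4% identical, against 96.5% for their coding sequences of 1272 bases each. The same kind of alignment gave 51.7% for the coding sequences of Acaa1a and Acaa2. The best local match of the windows spanned 48 columns at 68.8% identity. Unrelated windows were not aligned, so 49.4% is no measure of shared sequence. AGGTCA, the core element of many nuclear receptors (16.3% of windows), occurred 1 time in the Scp2 window and in none of the other 4, and TATAAA (13.6%) was in none of the 5, each searched on both strands. Such a match or its absence describes these letters only.

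Libraries held 16.1 to 19.9 M reads on genes. The denominators implied by the FPKM values were not these totals. The treated liver at 24 h had a denominator of 14.09 M for 16.96 M reads on genes. Treated muscle 5_3 at 40 d had 20.99 M for 19.72 M. How the denominators were set was not worked out here. Mitochondrially encoded transcripts took 3.73% to 4.41% of reads in treated livers and 4.37% to 6.54% in vehicle livers at 40 d, and 5.1% to 9.4% in treated and 7.15% to 10.53% in vehicle muscles. All 6 liver markers and all 6 muscle markers were above 1 FPKM in every library of their own tissue at 40 d. The muscle markers summed to at most 4.0 FPKM in a treated and 0.145 FPKM in a vehicle liver at 40 d, while the liver markers in muscle summed to 5.26 to 40.9 FPKM in treated and 9.68 to 168 FPKM in vehicle libraries. The 12 libraries of a tissue are named by treatment and label number (4_5 and 5_1 to 5_5 treated; 2_1, 2_3, 2_4, 2_5, 3_2 and 6_1 vehicle). No leading digit occurs in both groups, and the labels do not say what that digit stands for, so whatever it marks cannot be told apart from treatment.

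**Figure D1:**
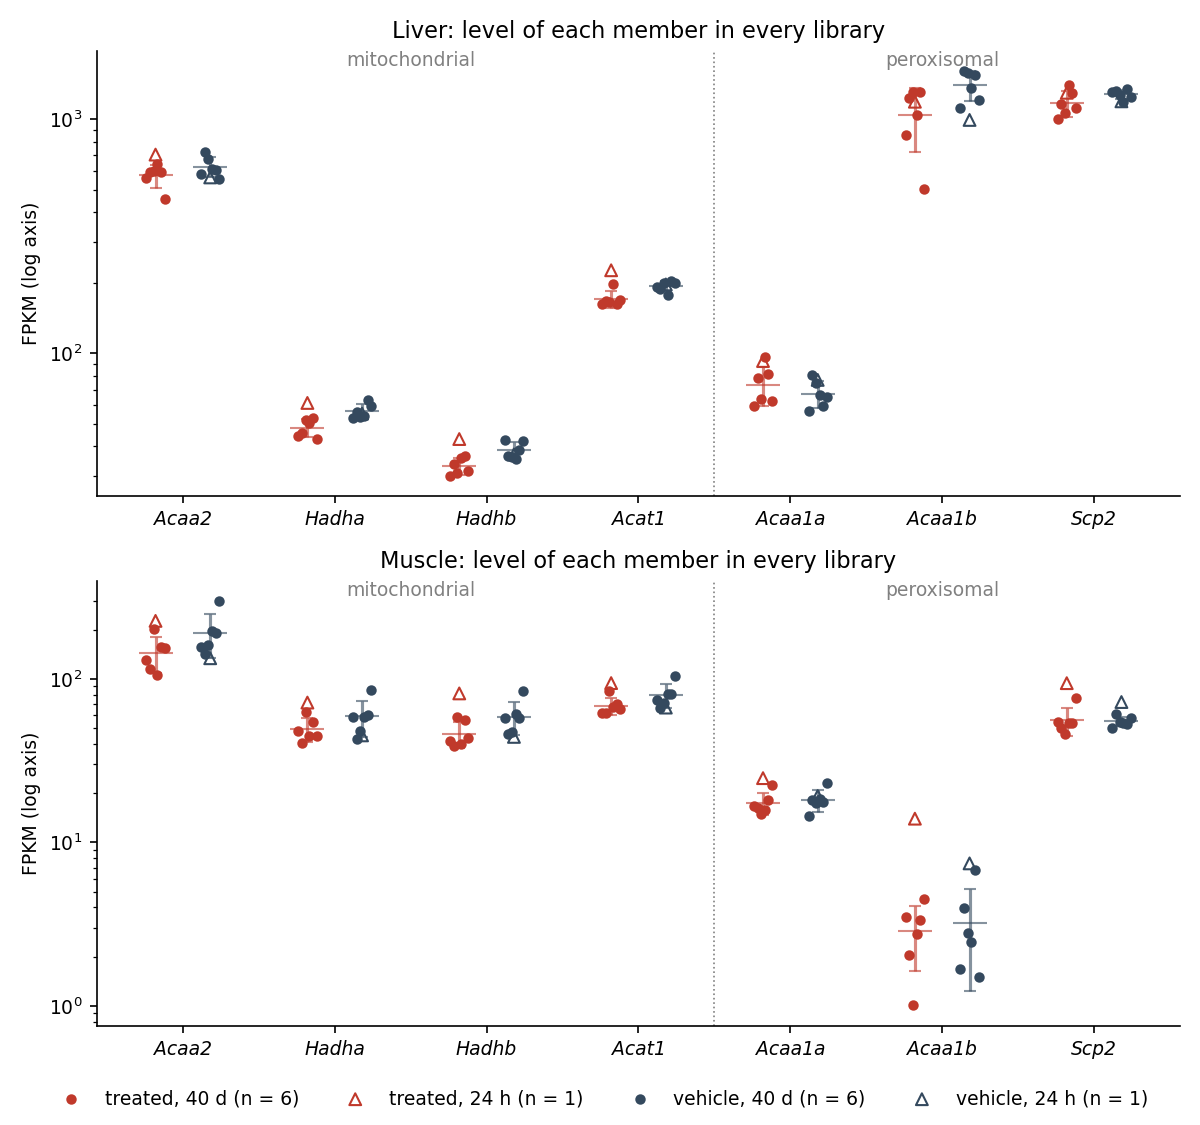
FPKM of each gene (log axis) in every library of liver (top) and muscle (bottom), with treated libraries left of vehicle libraries; filled points are 40 d (n = 6 each, bar and whisker the mean and SD) and open triangles are 24 h (n = 1 each). In liver at 40 d Acaa1b averaged 1041 FPKM in treated and 1399 FPKM in vehicle mice, and in muscle 2.85 and 3.2 FPKM.

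In liver the peroxisomal genes Scp2 and Acaa1b were the most abundant of the 7. Scp2 averaged 1171 ± 149.6 FPKM in treated and 1277 ± 56.8 FPKM in vehicle livers, and Acaa1b 1041 ± 316 FPKM in treated and 1399 ± 206 FPKM in vehicle livers (SD, n = 6 each). The ranges of these 2 overlapped in both groups, so their order was not resolved. Acaa2 came next with 574 ± 64.2 FPKM in treated and 626 ± 61.6 FPKM in vehicle livers, and Acat1 after it with 170.4 ± 13.8 and 193 ± 9.42 FPKM. Below these, Acaa1a averaged 73.5 ± 14.2 FPKM in treated and 67.2 ± 9 FPKM in vehicle livers, Hadha 48 ± 4.21 and 56.5 ± 4.07 FPKM, and Hadhb 33 ± 2.67 and 38.6 ± 3.13 FPKM.

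FPKM divides by the whole gene model, and 3 models are much longer than the main coding transcript: 3.22 times for Hadhb, 2.51 times for Acaa1a and 2.17 times for Hadha, against 1.0 to 1.32 times for the other 4. Rescaled to the principal transcript, on which values are fragments per kilobase of that transcript, Hadha and Hadhb stood level in liver, at 104 and 106 in treated mice and 123 and 124 in vehicle mice. On that scale Acaa1a, at 184 in treated and 168 in vehicle livers, lay beside Acat1, at 188 and 213. The rescaling assumes that all reads of a gene come from its principal transcript. Ratios of FPKM within a gene do not depend on this length, while differences of log2(FPKM + 1) depend on it through the added 1, mainly for low genes. All 7 models are annotated as protein coding, and those not placed above are Acat1 on the minus strand of chromosome 9 at chr9:53580522-53610382, Scp2 on the minus strand of chromosome 4 at chr4:108043839-108144998 and Acaa2 on the plus strand of chromosome 18 at chr18:74779197-74806207.

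In muscle the order was different. Acaa2 had the highest FPKM, at 144 ± 35.3 in treated and 191 ± 57 in vehicle muscles, followed by Acat1 at 68.5 ± 8.14 and 79.6 ± 13.3 FPKM. Scp2, Hadha and Hadhb lay together, averaging 55.6, 49.1 and 46.2 FPKM in treated and 54.9, 58.8 and 58.7 FPKM in vehicle muscles, with ranges that overlapped in both groups. Per principal transcript, Hadhb reached 149 in treated and 189 in vehicle muscles, next to Acaa2 at 144 and 191. Acaa1a averaged 17.4 ± 2.74 FPKM in treated and 18.2 ± 2.83 FPKM in vehicle muscles. Acaa1b was the lowest, at 2.85 ± 1.22 and 3.2 ± 1.96 FPKM, from 30 to 157 reads in treated and 45 to 206 reads in vehicle libraries.

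The liver and muscle tables were scaled separately, so levels are only set side by side. The tissues differed least for the trifunctional protein and most for the peroxisomal genes Scp2 and Acaa1b, while peroxisomal Acaa1a lay near mitochondrial Acaa2. Mean FPKM in liver over that in muscle was 0.978 for Hadha in treated and 0.961 in vehicle mice, and 0.714 and 0.658 for Hadhb. It was 2.49 and 2.42 for Acat1, 3.99 and 3.28 for Acaa2, and 4.22 and 3.69 for Acaa1a. Scp2 stood 21.1 times higher in liver of treated and 23.3 times in liver of vehicle mice, and Acaa1b 365 and 437 times. The highest Acaa1b value in muscle at 40 d, 6.78 FPKM, came from vehicle library 3_2, which also had the highest sum of liver markers in muscle, 168 FPKM. The part of other tissue in that value was not tested.

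The Acaa1 pair needs a reservation. Of the 50-base windows of their principal transcripts, Acaa1a and Acaa1b share 34.0% and 35.5% exactly, and the sources used here do not say how reads that match both were counted. The split between them is therefore uncertain, above all for the rarer of the pair in each tissue. Acaa1b also overlaps exons of Dlec1 on the opposite strand over 11.42% of its model, Acaa1a those of Myd88 over 6.57% and Hadha those of Garem2 over 0.86%, and whether counting used strand is not stated either. For Scp2, the gene total joins the long transcript that carries the thiolase and shorter ones that carry the sterol carrier alone.

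At 40 d in liver, the 4 mitochondrial genes and 2 of the 3 peroxisomal genes were lower on average in treated than in vehicle mice, with folds of 0.715 to 0.916, and Acaa1a was higher at 1.08-fold. No gene of the 7 passed an adjusted p of 0.05 (limma on log2(FPKM + 1), two-sided, Benjamini-Hochberg over 10995 genes), where 28 of 10995 genes (0.255%) passed, 11 higher (0.1%) and 17 lower (0.155%). At an unadjusted p of 0.05, 4 of 7 passed, all lower, against 13.2% of genes in either direction and 7.35% lower. With 1 library left out, 2 to 4 of 7 passed that p. Hadha and Hadhb passed in each such fit, while the unadjusted p rose to at most 0.0643 for Acat1 and 0.0845 for Acaa1b (limma). The median log2 difference was -0.20 for the mitochondrial and -0.13 for the peroxisomal genes, and -0.0033 over all genes tested. In these tissue homogenates, fewer cells of a type and less RNA per cell cannot be told apart.

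Hadha, the subunit with the hydratase and dehydrogenase activities, had 42.9 FPKM in the lowest, 47.9 in the median and 52.8 in the highest treated liver, and 53.0, 55.2 and 63.2 FPKM in vehicle livers. Every treated liver lay below every vehicle liver, although the closest pair, treated 5_4 and vehicle 2_1, was 52.8 and 53.0 FPKM. The log2 difference was -0.23 (SE 0.08, 95% interval -0.40 to -0.07), a fold of 0.851, with an unadjusted p of 0.00957 and an adjusted p of 0.219 by limma. Groups that did not overlap with treated lower occurred in 0.728% of the genes tested.

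Hadhb, the long-chain thiolase subunit, had 30.0, 32.5 and 36.4 FPKM in the lowest, median and highest treated liver, and 35.5, 37.6 and 42.6 FPKM in vehicle livers. Of the treated livers, 4 lay below all vehicle livers and the other two overlapped the lower vehicle values. The difference was -0.22 on the log2 scale (SE 0.08, 95% interval -0.38 to -0.06), nearly that of Hadha, with an adjusted p of 0.237 by limma. The ratio of Hadha to Hadhb in FPKM had a median of 1.43 in treated livers, from 1.35 to 1.69, and 1.5 in vehicle livers, from 1.25 to 1.63. The ratio of the subunits thus overlapped between the groups while both were lower in treated livers.

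Acaa2, the medium-chain thiolase, had 455, 593 and 643 FPKM in the lowest, median and highest treated liver, and 555, 609 and 721 FPKM in vehicle livers. The groups overlapped over most of their range, with treated 5_5 alone below all vehicle livers. The log2 difference was -0.13 (SE 0.10, 95% interval -0.35 to 0.10), with an adjusted p of 0.627 by limma, and it was -0.06 without treated 5_5 and -0.08 without vehicle 2_3. Acat1, the mitochondrial acetoacetyl-CoA thiolase, had 162, 166 and 198 FPKM in treated livers and 178, 196 and 204 FPKM in vehicle livers. Here 5 treated livers lay between 162 and 169 FPKM, below all vehicle livers, and treated 5_3 lay among them at 198 FPKM. The log2 difference of Acat1 was -0.18 (SE 0.08, 95% interval -0.35 to -0.02), with an unadjusted p of 0.0303 and an adjusted p of 0.325 by limma.

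Acaa1b, a straight-chain thiolase of peroxisomes, had 504, 1139 and 1306 FPKM in the lowest, median and highest treated liver, and 1116, 1446 and 1599 FPKM in vehicle livers. Treated libraries 5_5 (504 FPKM), 4_5 (855 FPKM) and 5_3 (1046 FPKM) lay below all vehicle livers and the other 3 within their range. Its log2 difference was the most negative of the 7, -0.48, but with an SE of 0.22 and an interval of -0.95 to -0.01, and its adjusted p was 0.364 by limma. Without treated 5_5 the difference was -0.29, with an unadjusted p of 0.069. That liver also had the lowest sum of liver markers, 21709.8 FPKM, against 29092 to 38861 FPKM in the other treated and 31861 to 37291 FPKM in vehicle livers.

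Acaa1a, its near-identical partner, had 59.3, 71.0 and 96.0 FPKM in treated livers and 56.8, 65.7 and 80.6 FPKM in vehicle livers, with broad overlap. The log2 difference was 0.12 (SE 0.13, 95% interval -0.16 to 0.39; adjusted p 0.728, limma), and 0.04 without treated 5_3 or 0.07 without vehicle 2_1. The ratio of Acaa1b to Acaa1a was 8.05 to 20.5 in treated livers, with a median of 15.1, and 18.5 to 25.8 in vehicle livers, with a median of 20.1. Scp2 had 1003, 1137 and 1399.6 FPKM in treated and 1186, 1284 and 1339 FPKM in vehicle livers. Its treated values spread on both sides of the vehicle range, 4 below and 1 above it, and the log2 difference was -0.13 (SE 0.10, 95% interval -0.35 to 0.09; adjusted p 0.6, limma).

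The sums of several marker lists differed among the livers, without a test. The 6 neutrophil markers, all listed in the table, summed to 95.7 to 1529 FPKM in treated livers and 81.6 to 130 FPKM in vehicle livers, and the 6 adipocyte markers to 84 to 161 FPKM in treated and 148 to 219 FPKM in vehicle livers. Of the 6 treated livers, 5 lay above every vehicle liver for the neutrophil and 5 below every vehicle liver for the adipocyte markers, and both ranges overlapped. None of these markers was at 0 throughout a group. Only 2 of the 6 adipocyte markers reached 1 FPKM in every liver of a group, in treated and in vehicle mice. Of the 6 neutrophil markers, 4 did so in treated and 3 in vehicle livers. The sums were not tested as measures of cell number. The 6 macrophage markers ranged from 172 to 421 FPKM in treated and 161 to 212 FPKM in vehicle livers, with treated 4_5 at 421 and the other treated livers at 219.8 FPKM or less, and the 5 red cell markers from 503 to 2551 FPKM in treated and 375 to 1568 FPKM in vehicle livers. The part of these marker differences, and of the lower share of mitochondrial transcripts, in the differences of the 7 genes was not tested.

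**Figure D2:**
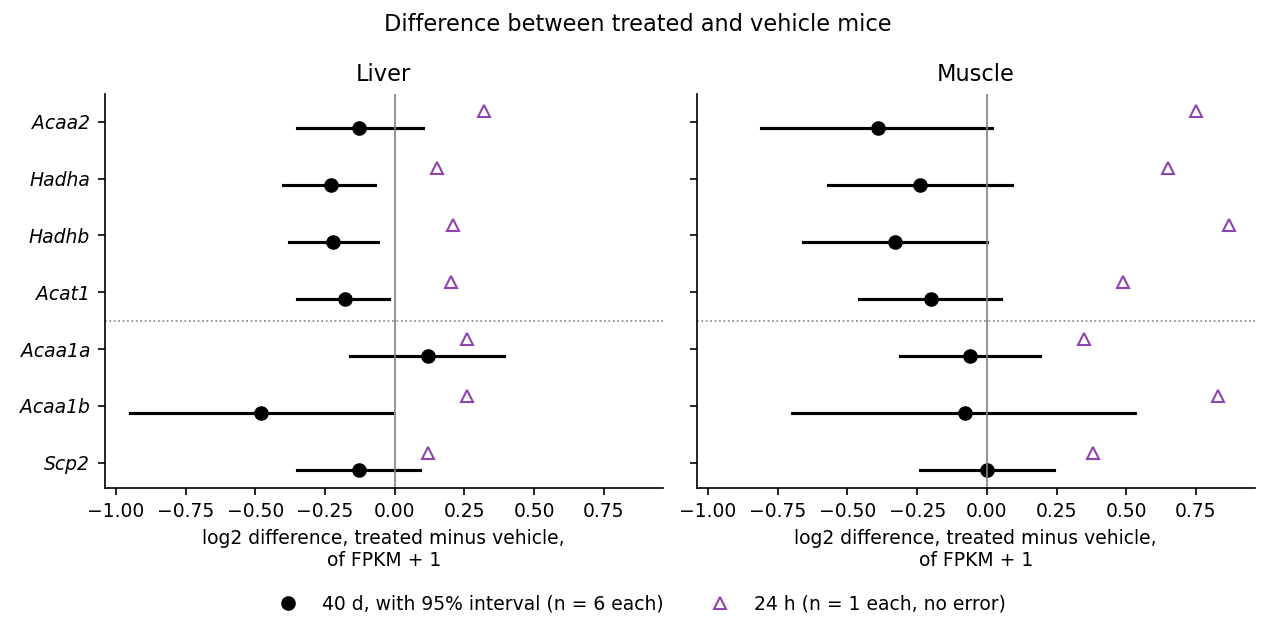
Log2 difference of FPKM + 1, treated minus vehicle, for each gene in liver (left) and muscle (right); black points are 40 d with the 95% interval of limma (n = 6 each) and open triangles the ratio of the single libraries at 24 h, with no error. At 40 d the points ran from -0.48 to 0.12 in liver and -0.39 to 0.00 in muscle, while all triangles were above 0 in the deposited scaling.

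In muscle at 40 d the 4 mitochondrial genes again had lower means in treated mice, with folds of 0.762 to 0.868, and the folds of the peroxisomal genes were 0.944 to 1.0. No gene of the 7 passed an adjusted p of 0.05, and neither did any of the 11708 genes tested (0.0%). At an unadjusted p of 0.05, 0 of 7 passed against 451 of 11708 genes (3.85%), and limma voom on the recovered reads gave 0 calls as well, with Hadhb passing at an unadjusted p of 0.05. With all reads on genes as the denominator, 2 of 7 passed that p, Acaa2 (0.0441) and Hadhb (0.0359, limma). With 1 library left out, 0 to 3 of 7 did. The median log2 difference was -0.28 for the mitochondrial and -0.06 for the peroxisomal genes, and -0.0036 over all genes tested.

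Acaa2 had 106, 142 and 203 FPKM in the lowest, median and highest treated muscle, and 143, 176 and 299.5 FPKM in vehicle muscles. Treated libraries 5_3, 5_1 and 4_5 lay below all vehicle muscles, the other 3 lay within their range, and vehicle 6_1 stood above all at 299.5 FPKM. The log2 difference was -0.39 (SE 0.19, 95% interval -0.81 to 0.02), with an unadjusted p of 0.0631 and an adjusted p of 0.999 by limma, and -0.25 without vehicle 6_1.

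Hadhb had 38.6, 42.5 and 58.1 FPKM in treated muscles and 45.7, 57.5 and 83.7 FPKM in vehicle muscles. Here 4 treated muscles lay below all vehicle muscles, and treated 5_2 and 5_4 lay among them. The log2 difference was -0.33 (SE 0.15, 95% interval -0.66 to 0.00), with an unadjusted p of 0.0509 by limma. Hadha had 40.7, 46.2 and 62.9 FPKM in treated and 42.9, 58.5 and 84.8 FPKM in vehicle muscles. Its groups overlapped almost throughout, with a log2 difference of -0.24 (SE 0.15, 95% interval -0.57 to 0.09). Without vehicle 6_1 the difference was -0.13 for Hadha and -0.22 for Hadhb. The ratio of Hadha to Hadhb had a median of 1.07 in treated muscles, from 0.972 to 1.14, and of 1.02 in vehicle muscles, from 0.939 to 1.05.

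Acat1 had 62.0, 66.4 and 83.8 FPKM in treated muscles and 66.3, 77.6 and 104 FPKM in vehicle muscles, and 3 treated muscles lay below all vehicle muscles. The log2 difference was -0.20 (SE 0.12, 95% interval -0.46 to 0.05; adjusted p 0.999, limma), and -0.13 without vehicle 6_1. As folds, the lower ends of the intervals of these 4 genes were 0.57 for Acaa2, 0.673 for Hadha, 0.634 for Hadhb and 0.729 for Acat1, so that falls of that size are within the error of this design.

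Of the peroxisomal genes in muscle, Acaa1a had 14.8, 16.5 and 22.5 FPKM in treated and 14.4, 17.9 and 23.2 FPKM in vehicle libraries. Acaa1b had 1.01, 3.04 and 4.51 FPKM in treated and 1.51, 2.63 and 6.78 FPKM in vehicle libraries. Scp2 had 46.1, 53.6 and 76.5 FPKM in treated and 50.4, 53.8 and 60.8 FPKM in vehicle libraries. All 3 pairs of groups overlapped over most of their range, and the log2 differences were -0.06 (95% interval -0.31 to 0.19), -0.08 (-0.70 to 0.53) and 0.00 (-0.24 to 0.24) for Acaa1a, Acaa1b and Scp2.

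The sums of the marker lists also varied among the muscles of both groups. The 6 slow fibre markers summed to 276 to 1395 FPKM in treated and 347 to 1869 FPKM in vehicle muscles, the 6 muscle markers to 33853 to 50223 and 29886 to 56655 FPKM, and the 6 adipocyte markers to 289 to 2149.9 and 512 to 1566 FPKM. The 6 neutrophil markers summed to 11 to 60.1 FPKM in treated and 7.04 to 13.4 FPKM in vehicle muscles, and the 5 red cell markers to 340.3 to 2348 FPKM in treated and 485 to 1015 FPKM in vehicle muscles. For both the neutrophil and the red cell markers, 4 of the 6 treated muscles lay above every vehicle muscle. None of these markers was at 0 throughout a group at 40 d, and their part in the values was not tested.

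The difference of the treatment effect between the tissues, taken as a contrast in 1 limma fit of the 24 libraries at 40 d over 9436 genes, passed for none of the 7, against 1 gene in all (0.0106%). At an unadjusted p of 0.05, 0 of 7 passed, against 5.21% of genes. The estimates ran from -0.40 for Acaa1b (95% interval -1.17 to 0.37) to 0.27 for Acaa2 (95% interval -0.20 to 0.73) in log2, liver effect minus muscle effect. Without the libraries numbered 5_5 the estimate of Acaa1b was -0.09, and without those numbered 6_1 that of Acaa2 was 0.09. For Hadha the estimate was 0.01 (95% interval -0.35 to 0.37) and for Hadhb 0.11 (95% interval -0.25 to 0.46).

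Within a tissue the 7 genes varied together to different degrees. After the mean of each group was taken out, the 6 pairs of mitochondrial genes had Pearson's r of 0.90 to 0.97 over the 12 muscles and -0.06 to 0.43 over the 12 livers. For Hadha and Hadhb in muscle r was 0.97 and Spearman's rho 0.97 (permutation p 6e-05 and 0.00024, adjusted over 18 relations to 0.00072 and 0.00216), and r was 0.95 without the 2 libraries farthest from the median of Hadha. It was 0.95 within the treated and 0.99 within the vehicle muscles. In liver the same pair had r of 0.40 and rho of 0.30 (permutation p 0.216 and 0.358, adjusted 0.324 and 0.491), and r of 0.28 without the 2 farthest. The difference between the tissues in these correlations was not tested.

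**Figure D3:**
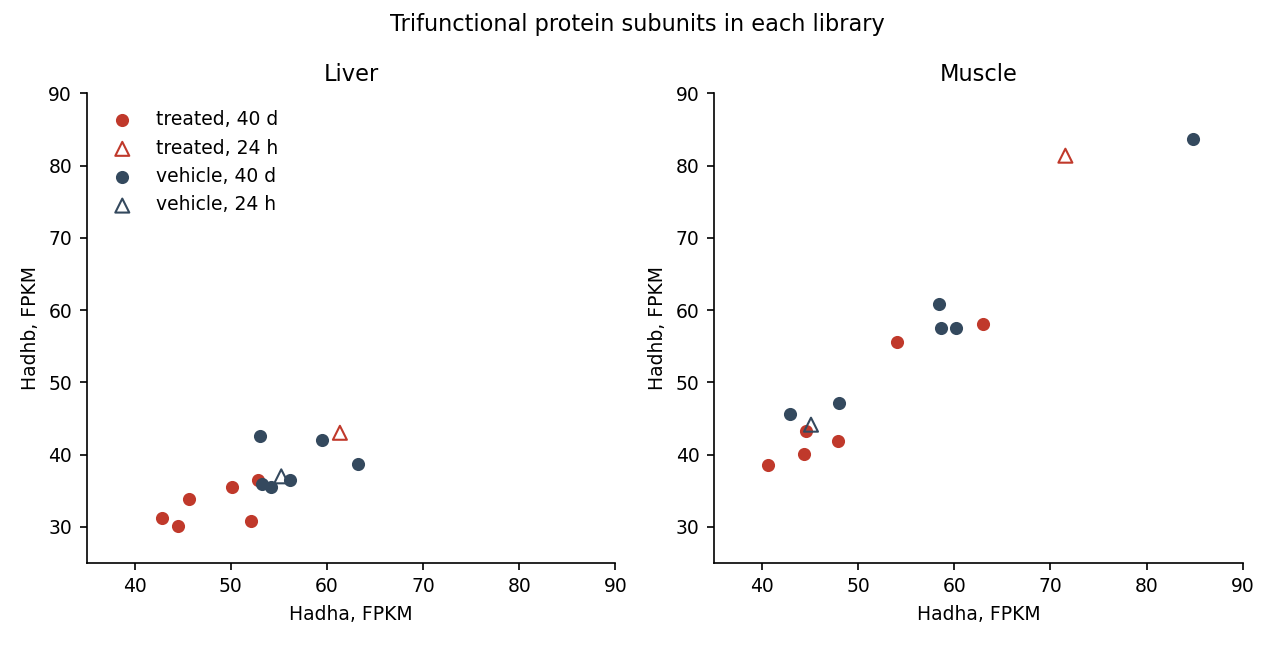
Hadhb against Hadha in FPKM in each library of liver (left) and muscle (right); filled points are 40 d and open triangles 24 h, treated in red and vehicle in blue. The muscles fall along a line from 40.7 and 38.6 FPKM in treated 5_1 to 84.8 and 83.7 FPKM in vehicle 6_1, and the livers cluster between 42.9 and 63.2 FPKM of Hadha.

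The other mitochondrial pairs in muscle also had high r. Hadha with Acat1 had r of 0.95 and rho of 0.90 (permutation p 0.00022 and 0.00077), and Hadhb with Acat1 0.93 and 0.93 (permutation p 0.00012 and 0.0002). Acaa2 had r of 0.90 with Hadha, 0.92 with Hadhb and 0.90 with Acat1, with rho of 0.80, 0.86 and 0.76 (permutation p 0.00058, 8e-05 and 0.00053 for r, and 0.00323, 0.00056 and 0.0066 for rho). Without the 2 libraries farthest from the median of Acaa2 these r were 0.68, 0.77 and 0.65, so part of them rested on those libraries. The adjusted p of these pairs was 0.00174 or less for r and 0.0198 or less for rho. Between mitochondrial and peroxisomal genes r in muscle ran from -0.49 to 0.47 over 12 pairs.

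Among peroxisomal genes, the values of Acaa1a and Scp2 were correlated past an unadjusted p of 0.05 in both tissues. In muscle r was 0.78 and rho 0.76 (permutation p 0.00491 and 0.00784, adjusted 0.0126 and 0.0202), and r was 0.64 without the 2 farthest libraries. In liver r was 0.72 and rho 0.66 (permutation p 0.0216 and 0.0476, adjusted 0.0486 and 0.107), and r was 0.53 without the 2 farthest libraries, 0.96 within the treated and -0.07 within the vehicle livers. For Acaa1a and Acaa1b, which may share reads, r was 0.28 in muscle and 0.49 in liver, neither past an unadjusted p of 0.05 in the permutation test. Values of 2 genes in a library share its depth, scaling and tissue make-up.

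**Figure D4:**
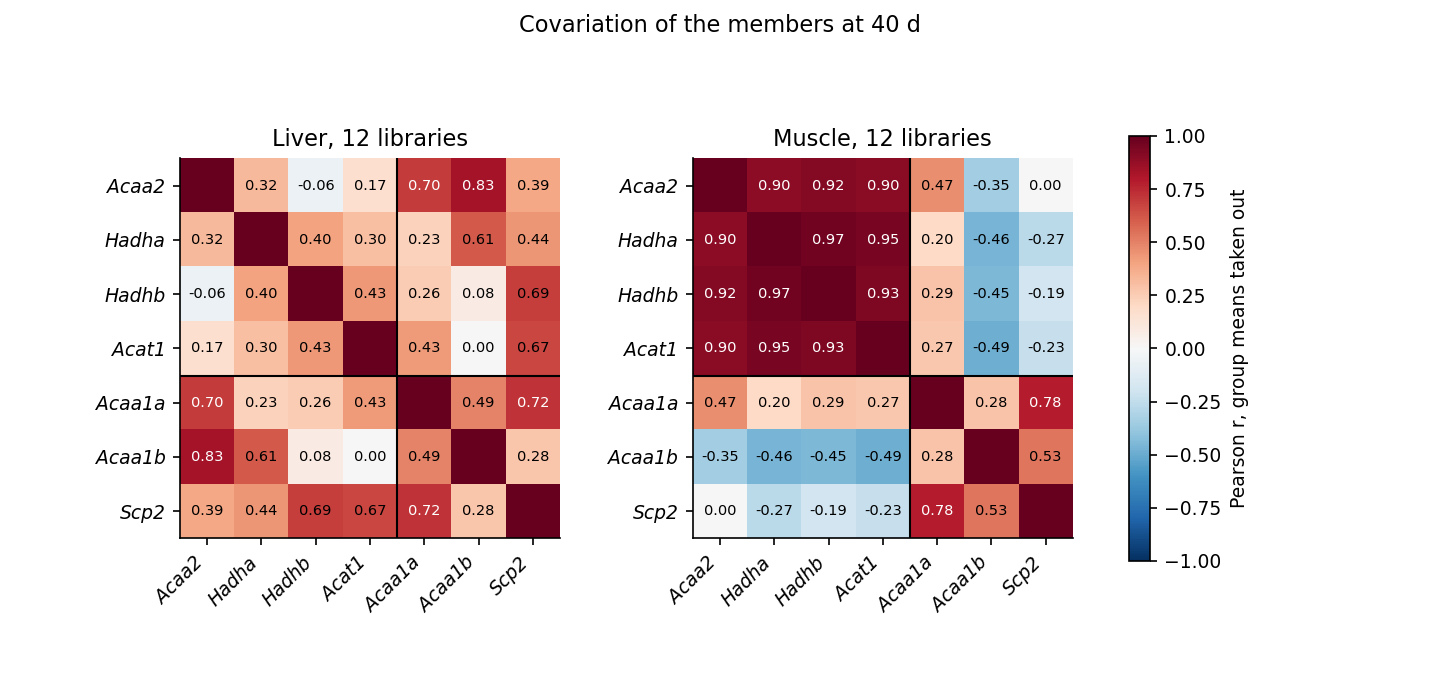
Pearson's r between each pair of the 7 genes over the 12 libraries of liver (left) and muscle (right) at 40 d on log2(FPKM + 1), with the mean of each group taken out; black lines part mitochondrial from peroxisomal genes. The mitochondrial block of muscle holds 0.90 to 0.97 and that of liver -0.06 to 0.43.

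Over the 10740 other named genes tested in muscle, the gene most like Hadha in this measure was Hadhb, and the gene most like Hadhb was Hadha (r 0.968). After Hadhb, Hadha was nearest to Hsdl2 (0.964) and Etfdh, which passes electrons from acyl-CoA dehydrogenases to ubiquinone (0.963), and Hadhb was nearest to Ddo (0.961) and Ckmt2, the mitochondrial creatine kinase of muscle (0.941). Acaa2 was most like Fabp3, the fatty acid binding protein of heart and muscle (0.974), Mdh1 (0.973) and Ccdc28b (0.962). Acat1 was most like Slc25a11 (0.969), Coq9, needed for ubiquinone synthesis (0.964), and Atp5b, a subunit of ATP synthase (0.958).

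The peroxisomal genes had other neighbours in muscle. Acaa1a was most like Cdk5rap3 (0.971), Mrpl27 (0.954) and Lmna (0.953), and Scp2 most like Ric8a (0.981), Hmgn1 (0.976) and Sdf4 (0.974). Acaa1b was most like Ass1 (0.862), the argininosuccinate synthase of the urea cycle, which is abundant in liver, and Chid1 (0.832).

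In liver, among 10132 other named genes, Hadhb ranked at place 1860 for Hadha and Hadha at place 1227 for Hadhb. The nearest genes were Ube2e2 (0.904), Ambra1 (0.89) and Agpat3 (0.884) for Hadha, and Nln (0.906), Ubap1 (0.893) and As3mt (0.89) for Hadhb. Acaa2 was nearest to Mcee (0.944), Dcxr (0.939) and Ddt (0.931), and Acat1 to Rpl14-ps1 (0.879), Tmem150a (0.874) and Scfd2 (0.854). Acaa1b was nearest to Tecr, the reductase that ends fatty acid elongation (0.958), Slc39a5 (0.955) and Qdpr (0.952), and had Acaa2 at place 124 with 0.829. Acaa1a was nearest to Llph (0.955), Tmem126a (0.942) and Wdr18 (0.939), and Scp2 to Yipf1 (0.94), Hcfc1r1 (0.939) and Mgst1 (0.934). These are the highest of many values and are given as a description.

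Most genes of the rest of the pathway had negative differences in liver, and none passed the adjusted test. Of 19 tested genes of mitochondrial beta oxidation, 18 had a negative log2 difference, with a median of -0.15, and 7 passed an unadjusted p of 0.05, all lower, against 7.35% of all genes lower at that p, but 0 passed the adjusted test. Decr1, which handles double bonds, averaged 65.6 ± 5.45 FPKM in treated and 84.1 ± 4.46 FPKM in vehicle livers, a log2 difference of -0.36 (adjusted p 0.0856, limma). Etfdh (-0.24) and Cpt1a, the entry gate for long chains (-0.31), came next. Of 19 peroxisomal genes 14 were negative, with a median of -0.12 and none passing, led by Hsd17b4, which precedes the thiolase step in peroxisomes (-0.30, adjusted p 0.175), Abcd3 (-0.39) and Ech1 (-0.21).

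Of the 5 ketone body genes in liver, 4 were negative and 0 passed: Aacs, the cytosolic acetoacetyl-CoA synthetase, differed by -1.24 (adjusted p 0.165), Bdh1 by -0.26 and Oxct1 by 0.43. Of 10 tested genes of the PPARα axis, the main transcriptional switch of beta oxidation, 9 were negative with a median of -0.32 and 0 passed. Plin2, a lipid droplet coat protein, averaged 218 ± 31.5 FPKM in treated and 350.1 ± 69.7 FPKM in vehicle livers (-0.67, adjusted p 0.0902), followed by Acot2 (-0.60) and Pdk4 (-0.64). The cytosolic thiolases Acat2 and Acat3 differed by -0.36 and -0.25, with adjusted p of 0.327 and 0.432 by limma. Over all genes tested in liver 51.0% had a negative difference.

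In muscle 18 of 20 mitochondrial genes had a negative log2 difference, with a median of -0.22, and 4 passed an unadjusted p of 0.05, all lower, against 3.85% of all genes in either direction. The smallest p belonged to Hadh, the short-chain hydroxyacyl-CoA dehydrogenase (-0.34), Slc25a20, the carnitine carrier (-0.39), and Etfdh (-0.33), each with an adjusted p of 0.999 by limma. Of 16 tested peroxisomal genes 12 were negative, with a median of -0.08, led by Abcd3 (-0.22), Hsd17b4 (-0.16) and Ech1 (-0.28). The ketone body genes, with 4 of 5 negative, were led by Bdh1 (-0.35) and Oxct1 (-0.17), and the PPARα axis, with 6 of 9 negative, by Vnn1 (0.55), Ppargc1a (-0.28) and Plin2 (-0.31). Acat2 differed by -0.06. None of these passed, and 51.4% of all genes tested in muscle had a negative difference.

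**Figure D5:**
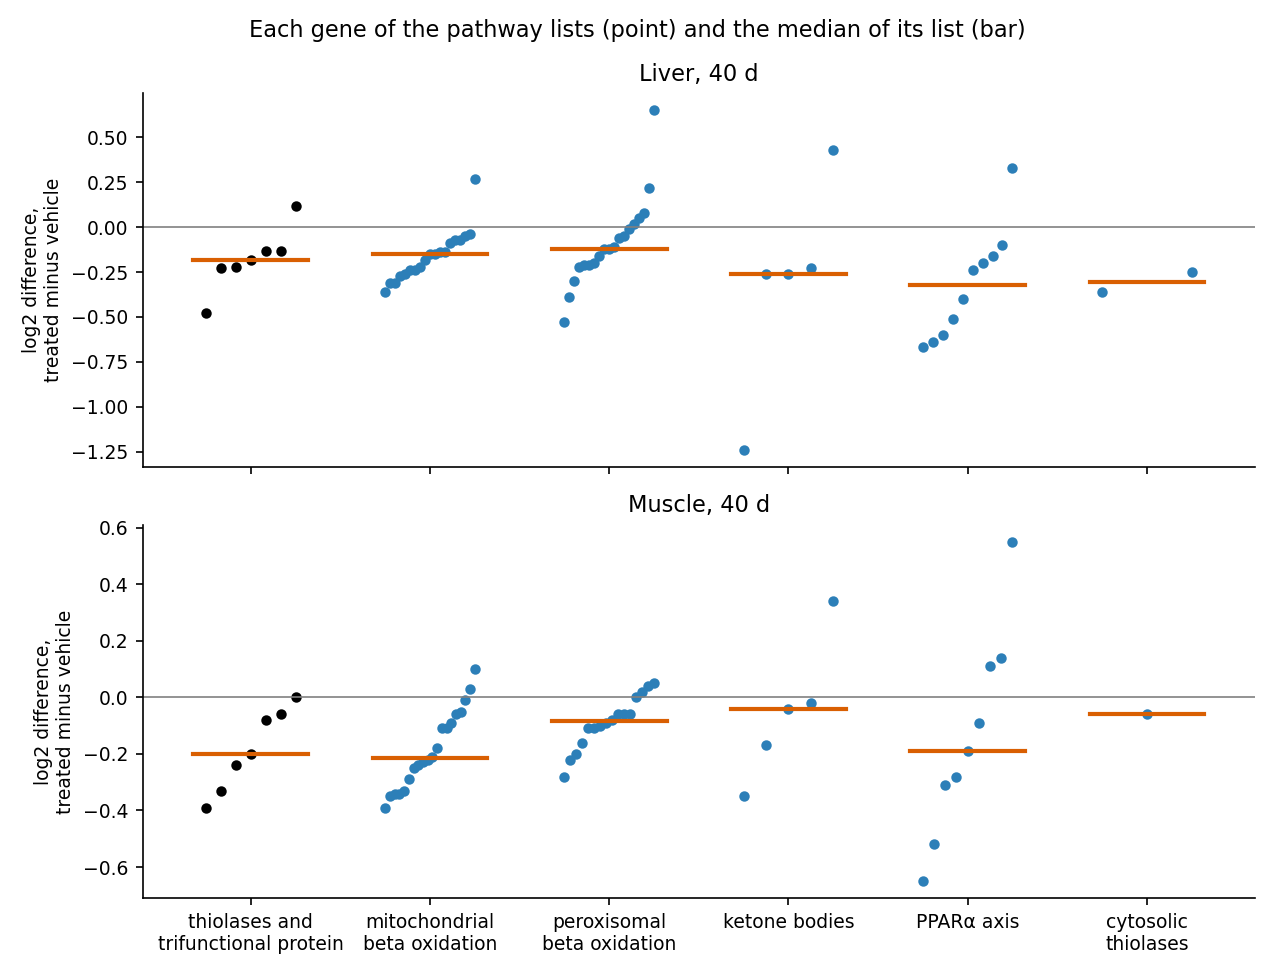
Log2 difference of FPKM + 1, treated minus vehicle, at 40 d for the 7 genes (black) and each tested gene of 5 lists (blue), with the median of each list as an orange bar, in liver (top) and muscle (bottom). The medians of the 7 genes were -0.18 in liver and -0.20 in muscle, and those of mitochondrial beta oxidation -0.15 and -0.22.

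At 24 h each group had 1 library per tissue, so differences have no replicate check and no test. In muscle all 7 genes were higher in the treated library, and 4 of 7 by more than 1.5-fold, against 7.52% of 12878 genes past that fold in that direction and 47.0% of genes above a ratio of 1. Hadhb had 81.4 FPKM (8056 reads) in the treated and 44.1 FPKM (4587 reads) in the vehicle muscle, a log2 ratio of 0.88 without a pseudocount (95% counting interval 0.83 to 0.94) and of 0.87 on FPKM + 1, the scale of the ratios that follow. Acaa2 had 226 and 134 FPKM (0.75), Hadha 71.5 and 45.1 FPKM (0.65) and Acat1 94.1 and 66.7 FPKM (0.49). Beside the vehicle muscles at 40 d, which were scaled separately, the vehicle library at 24 h lay below the range for Acaa2 and Hadhb and within it for Hadha and Acat1.

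The peroxisomal genes were higher by less, except for Acaa1b. Acaa1b had 14.0 FPKM (411 reads) in the treated and 7.44 FPKM (230 reads) in the vehicle muscle at 24 h, a log2 ratio of 0.91 without a pseudocount (95% counting interval 0.67 to 1.15) and of 0.83 on FPKM + 1. Acaa1a had 24.7 and 19.2 FPKM (0.35), and Scp2 94.0 and 72.1 FPKM (0.38). The marker sums of this pair of muscles also differed. The adipocyte markers summed to 3468 FPKM in the treated and 1637 FPKM in the vehicle library, and the slow fibre markers to 233 and 39.2 FPKM. The muscle markers summed to 25819.9 and 38987 FPKM, and the liver markers to 17.9 and 121 FPKM. Mitochondrial transcripts took 10.97% of reads in the treated and 6.94% in the vehicle muscle. All 6 adipocyte, slow fibre and muscle markers were above 0 in both libraries, and the part of these differences in the values was not tested.

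In liver at 24 h all 7 genes had a higher FPKM in the treated library, by log2 ratios of 0.12 for Scp2 to 0.32 for Acaa2, and 0 of 7 passed 1.5-fold, against 3.48% of 12923 genes higher by that fold and 57.3% above a ratio of 1. Acaa2 had 705 FPKM in the treated and 563 FPKM in the vehicle liver, Hadha 61.3 and 55.2 FPKM, Hadhb 43.0 and 37.0 FPKM, and Acat1 226 and 197 FPKM. Acaa1b had 1186 and 992 FPKM, Acaa1a 92.6 and 76.9 FPKM, and Scp2 1295 and 1191 FPKM. The liver markers summed to 41886 FPKM in the treated and 34959 FPKM in the vehicle liver, the neutrophil markers to 223 and 110.3 FPKM, the red cell markers to 338 and 647 FPKM, the macrophage markers to 178 and 174 FPKM and the adipocyte markers to 205 and 164 FPKM. Of the 6 adipocyte markers, 3 were at 0 in the treated and 1 in the vehicle liver, and the part of these differences was not tested. The direction depended on the scaling. Hadha had 7544 reads of 16.96 M in the treated and 7819 of 17.34 M in the vehicle liver, and with all reads on genes as the denominator its log2 ratio was -0.02 and that of Scp2 -0.05, while the other 5 lay between 0.03 and 0.15. With that denominator the median of all genes was -0.10, against 0.04 as deposited, and all 7 stayed above the median in either scaling.

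Between 24 h and 40 d the tables were scaled separately and the animals differ, so values are only set side by side. In muscle the treated library at 24 h had 81.4 FPKM of Hadhb and the highest treated library at 40 d 58.1 FPKM, and the vehicle library at 24 h had 44.1 FPKM against 45.7 to 83.7 FPKM at 40 d. The marker sums of muscle differed between the times too. Slow fibre markers summed to 233 (treated) and 39.2 FPKM (vehicle) at 24 h, against 276 to 1395 and 347 to 1869 FPKM at 40 d. Adipocyte markers summed to 3468 and 1637 FPKM at 24 h, against 289 to 2149.9 and 512 to 1566 FPKM at 40 d. Their part in the values was not tested. The ratio of Hadha to Hadhb at 24 h was 0.879 in the treated and 1.02 in the vehicle muscle, and 1.43 and 1.49 in liver. The ratio of Acaa1b to Acaa1a in liver at 24 h was 12.8 in the treated and 12.9 in the vehicle library.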

How the data were processed

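RNA from liver and muscle was sequenced after Trizol extraction, a Bioanalyzer check and library preparation with NEBNext Ultra, per the labels' protocols. The authors deposited 3 tables of FPKM, per the file headers, whose builds the submitters' processing notes name as GRCm38 and mm10. Neither aligner nor counter, nor whether strand was used, was given in the sources used here. Up to 2000 reads, 100% of entries came out as whole multiples of 1 read (tolerance 0.01), which gave the reads per gene. All sample columns were used, and the columns were mapped by their names.

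Each tissue at 40 d was fitted with limma 3.58.1 under R 4.3.3 (trended prior, two-sided) on log2(FPKM + 1), treated against vehicle, adjusted by Benjamini-Hochberg with a threshold of 0.05. A gene entered when 6 or more of the 12 libraries reached 1 FPKM, and all 7 genes passed this filter in both tissues. Differences are on the scale of log2(FPKM + 1), where changes of low genes are understated. The tissues' effects were compared by a contrast over 24 libraries. At 24 h intervals are exact (Clopper-Pearson) 95% intervals and cover counting error only, since each group is 1 library. They take each read as independent, although reads carry no molecular identifiers, so they may be too narrow. Correlations used 100000 permutations within groups. The tables were scaled separately, so no level was tested across them. Libraries of a group were taken as separate animals as far as the label numbers say; otherwise the p-values measure only the spread between these samples. Libraries of a group differed by a chi-square of 13.37 to 202.78 for each degree of freedom, so none was a duplicate. At these depths the 7 genes had 30 reads or more in every library.

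Model lengths and transcripts came from GENCODE M21, motifs and alignments from Biopython 1.88, and tables and figures from Python 3.11.15 with matplotlib 3.10.9, SciPy 1.17.1, pandas 2.3.3 and NumPy 2.4.6. All 7 genes are named in every comparison, with the 3 genes of smallest p in each list and the 3 genes most like each of the 7, except for 1 gene that is not reported here. The 7 genes, the lists and the tests were chosen with earlier results of these data known. The fits were tested on simulated data. Alternatives changed the pseudocount, the filter, the scaling, the test and the libraries used.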

Additional observations from a re-analysis of the deposited data

Results flagged for a closer look

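Of 28 groups of 6 libraries, 3 held a library whose gap to the nearest of the others took more than 0.625 of the group's range, and chance flags about 1 in 20. Acaa2 was 299.5 FPKM in vehicle muscle 6_1, against 143 to 195 FPKM in the other vehicle muscles. That library also had the highest Hadha, Hadhb and Acat1 of the 12 muscles, and the highest sum of muscle markers, 56655 FPKM. Its slow fibre markers summed to 1360.2 FPKM, and its denominator was 15.18 M for 17.35 M reads on genes. Acat1 was 198 FPKM in treated liver 5_3, against 162 to 169 FPKM in the other treated livers, and this liver also had the highest Acaa1a and Scp2 of the treated livers. In reads it did not stand apart, with 11446 reads of Acat1 against 10973 to 11864 in the other treated livers. Its denominator was 15.37 M for 16.77 M reads on genes. Scp2 was 76.5 FPKM in treated muscle 5_5, against 46.1 to 54.1 FPKM in the other treated muscles, and this muscle had the lowest share of mitochondrial transcripts, 5.1%, and the highest sum of adipocyte markers at 40 d, 2149.9 FPKM. The part of these features in the values was not tested.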

How the results depend on the processing

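None of the 7 genes was called in any of the alternatives run. The count of all genes called in liver, 28, was 0 with no filter on low values and 0 to 83 with a library left out: 0 without vehicle 2_3 or treated 5_3, 1 without vehicle 3_2, 2 without vehicle 2_1, 8 without vehicle 2_5, 13 to 17 without vehicle 2_4 or 6_1 or treated 5_1, 5_4 or 5_5, and 83 without treated 5_2. In muscle the count of 0 was 1 with a mean of at least 5 FPKM, 1 with all reads on genes as denominator and 0 to 1 with a library left out (1 without vehicle 6_1). For the difference between tissues the count of 1 was 3 with the label number as a replicate block and 0 to 2 with a number left out. Livers and muscles of the same number correlated at -0.0782 to 0.4466, over 0.1 in 7 of 12 pairs, and 7 of 12 livers correlated best with the muscle of their own number, a hint of pairing from the data. The labels do not say that a number is 1 animal and not every pair passed 0.1, so the numbers were not taken as pairs, and the block changed no call among the 7 genes.

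Of 363 values of the 7 genes at 40 d, 347 kept their direction. Those that reversed left out a library or a number: Scp2 in muscle (-0.09 to 0.05), Acaa1b in muscle (-0.21 to 0.12, positive without vehicle 3_2 or, at 0.09, treated 5_2), Acaa1a in muscle (-0.14 to 0.0077), and the tissue difference of Hadha (-0.09 to 0.09) and Acat1 (-0.05 to 0.09). The tissue difference of Acaa1b ran from -0.65 to -0.09 and that of Acaa2 from 0.09 to 0.38 without reversing. At 24 h, liver genes past 1.5-fold numbered 901 as deposited and 1503 with a pseudocount of 0.1, and liver ratios fell to 0.02 to 0.22 when divided by the median ratio of 1.07, and to -0.02 for Hadha and -0.05 for Scp2 with all reads on genes, a scaling that, like voom, was chosen after seeing the data. The 2 planned count-model tests were not run because the tables hold FPKM, and limma voom was run instead. The cause of these changes was not tested, beyond fewer samples or another set of genes tested.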
